A study of Mus musculus with 4 samples.

Results

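The 34 genes described here serve the charging of transfer RNA and the stress pathway that answers when charging fails. They were chosen by symbol from the 24497 features of the deposited expression table, and all 34 were found. By role they are 20 genes of cytosolic aminoacyl-tRNA synthetases, 3 eIF2 kinase genes, Atf4, 8 genes known as targets of ATF4, the eIF2 phosphatase subunit gene Ppp1r15b, and Cebpz. Poly(A) RNA had been sequenced in 4 libraries of spleen cells, enriched for CD45.2, from recipient mice with acute myeloid leukaemia. Every recipient had been irradiated with 320 rads and transplanted with CD45.2+ donor leukaemia cells bearing the MLL-AF9 (MA9) fusion, so both groups share the fusion, the irradiation and the transplantation. The CS1 group (2 libraries) received 5 mg/kg of CS1, which the labels call an FTO inhibitor, by intraperitoneal injection on alternate days for 20 days, and the PBS group (2 libraries) received PBS. FTO is a demethylase that removes m6A marks from RNA. Strain, age and whether a library is 1 mouse are not stated in the labels, so each p-value rests on the spread between libraries alone, which may be technical. CS1 replicate 2 carries the name CS2 in its treatment field, but CS1 in its title and description. It was used as a CS1 library. Calls were examined without it for the 34 genes and for the 3 genes of smallest p in each further list. Those that changed are named. The markers and other genes named below were not examined without it.

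Aminoacyl-tRNA synthetases attach each amino acid to its transfer RNA and so feed the ribosome. When amino acids run short, when haem is lacking or when the endoplasmic reticulum is overloaded, eIF2 kinases phosphorylate the initiation factor eIF2, which lowers general translation while the ATF4 messenger is translated more. ATF4 then drives genes of amino acid synthesis and import, many cytosolic synthetases, and the phosphatase subunit that reverses the signal, together called the integrated stress response. Since ATF4 output is set largely at translation, poly(A) RNA reports the Atf4 transcript and the transcripts of its targets, and not the ATF4 protein.

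ATF4 binds, with C/EBP partners, a composite element that can be searched as TGATGNAA, in which N is any base. The element was looked for on both strands in RefSeq promoter windows (GRCm38.p6, 250 bases before to 50 after the annotated start), which were found for 25 of the 34 genes; Cars, Hars, Lars, Nars, Rars, Vars, Wars, Cebpz and Ppp1r15b had none in the tables. It was present in 8 of these 25 genes, against 1219 of 27025 genes with a window (4.51%). Among the ATF4 targets it was found in Asns (chr6:7693160-7693459, minus strand), Trib3 (chr2:152344011-152344310, minus strand) and Chac1 (chr2:119350992-119351291, plus strand). Their windows are shown because they are the ATF4 targets of the set in which the element was found, each on the strand of its gene, 5′ to 3′, with the match in capitals; a match written as TTNCATCA lies on the opposite strand.
Asns: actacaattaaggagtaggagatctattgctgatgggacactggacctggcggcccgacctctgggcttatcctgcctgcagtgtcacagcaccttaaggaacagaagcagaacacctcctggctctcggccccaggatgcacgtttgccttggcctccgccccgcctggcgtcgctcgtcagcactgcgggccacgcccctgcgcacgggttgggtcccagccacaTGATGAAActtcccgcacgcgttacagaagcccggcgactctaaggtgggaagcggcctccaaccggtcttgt
Trib3: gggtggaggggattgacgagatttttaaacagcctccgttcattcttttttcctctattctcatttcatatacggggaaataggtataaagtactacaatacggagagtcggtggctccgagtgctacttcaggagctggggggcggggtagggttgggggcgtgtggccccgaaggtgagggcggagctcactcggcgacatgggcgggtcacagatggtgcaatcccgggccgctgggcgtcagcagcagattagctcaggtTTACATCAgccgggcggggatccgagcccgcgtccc
Chac1: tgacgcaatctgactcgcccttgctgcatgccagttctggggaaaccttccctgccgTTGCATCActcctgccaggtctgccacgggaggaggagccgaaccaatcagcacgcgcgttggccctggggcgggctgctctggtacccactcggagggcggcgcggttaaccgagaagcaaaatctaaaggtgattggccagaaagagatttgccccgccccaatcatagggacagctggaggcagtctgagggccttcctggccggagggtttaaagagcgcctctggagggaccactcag
The match began 23 bases before the annotated start in Asns, 14 bases after it in Trib3 and 193 bases before it in Chac1. Another 5 genes with the element encode synthetases, and for these only the match near the start, with 10 bases on either side is shown, to let the elements be compared.
Aars (chr8:111033841-111033868, plus strand): gcgggtcactTTTCATCAgagcgctctg
Gars (chr6:55037961-55037988, plus strand): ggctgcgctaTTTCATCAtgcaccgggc
Iars (chr13:49682127-49682154, plus strand): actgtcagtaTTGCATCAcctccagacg
Tars (chr15:11399656-11399683, minus strand): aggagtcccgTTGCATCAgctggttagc
Yars (chr4:129189896-129189923, plus strand): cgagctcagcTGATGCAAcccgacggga
The matches shown began within 30 bases of the annotated start, before it in Gars and Tars and after it in Aars, Iars and Yars. No match lay in the windows of Atf4, Ppp1r15a, Psat1, Psph, Phgdh or Ddit3. A match is a run of letters and not a measured binding site.

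Levels are given as TPM, a transcript's share of its library corrected for length. Differences are log2 fold changes of CS1 minus PBS after adding 1 to each TPM value, with their standard error (SE); on this scale the change of a low gene comes out too small. Limma was fitted, two-sided, to the 11866 features that reached 1 TPM in 2 or more libraries. A feature is called higher or lower where its p, adjusted over all of them by the Benjamini-Hochberg method, is under 0.05. Each adjusted p below comes from that fit. The libraries differed widely between groups, since 67.0% of all tested features were called, 35.3% higher and 31.6% lower in CS1, and the groups did not overlap for 84.4%. With 2 libraries a group, an exact permutation test of a single gene cannot give a two-sided p below 0.333. The deposited values keep no read depth, so the depth behind each value is unknown.

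Both groups expressed genes of the myeloid leukaemia, and Ptprc, which encodes the CD45 used for enrichment, stood at 583 and 597 TPM in PBS and at 323 and 315 TPM in CS1. All 6 myeloid markers examined were called, where 67.0% of all tested features were. In CS1 3 of them were higher (Kit, Mpo, Cd33) and 3 lower (Ptprc, Itgam, Csf1r). Markers of B cells summed to 55.3 and 53.7 TPM in PBS and 34.5 and 31.7 TPM in CS1, with Cd79b the most abundant. Of these 5 markers 4 were called lower (80%, against 31.6% of all features). The 5 T cell markers found summed to between 8.07 and 8.51 TPM in PBS and between 5.00 and 5.09 in CS1, with Cd3e the most abundant. Among the 3 of them tested 1 was called lower (33.3%). In the plasma cell list Xbp1, which is also a stress gene of other cells, made up most of the sum (302 to 306 TPM in PBS, 230 to 238 in CS1), and Tnfrsf17 was listed at 0.01 in PBS replicate 1. All 3 tested genes were called lower, where 31.6% of all features were. Of these Mzb1 passed the filter only through its PBS libraries (1.55 and 1.87 TPM, with 0.71 and 0.89 TPM in CS1). The 5 erythroid markers used summed to 19.0 and 19.4 TPM in PBS and 29.0 and 23.7 TPM in CS1, mostly from Hba-a1 and its near-identical copy Hba-a2. Only 2 of them, Hba-a1 and Hbb-bt, were tested, and neither was called. Hba-a1 was listed at 26.1 and 0.01 TPM in CS1 and Hba-a2 at 0.01 and 19.3 TPM, so the test of Hba-a1 says little. Alas2 and Klf1, at 0.26 to 1.12 TPM and higher in both CS1 libraries, were not tested. Of 6 stromal and endothelial markers, Pecam1 was the only one tested and was called lower, while Kdr was listed at 0.01 in PBS replicate 1 and both CS1 libraries. Pecam1 averaged 40.5 TPM over the libraries and the other 5 markers each less than 1 TPM. Whether its transcript came from stromal or endothelial cells was not tested. Fewer cells of a type and less RNA per cell cannot be told apart in such bulk samples, and the part of these cell-type differences in the results below was not tested.

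Most of the 34 genes were lower in CS1, and the changes were modest. Of 33 genes tested, 23 were called (69.7%, near the 67.0% of all features). Of these 18 fell (54.5%, against 31.6% of all features) and 5 rose (15.2%, against 35.3%). The median log2 fold change over all 34 was -0.19, beside 0.04 over all tested features. The 5 that rose were Atf4, Ppp1r15a, Psph and the synthetase genes Vars and Farsa. Of the 23 called genes 18 changed by less than 0.5 on the log2 scale, and none reached 1 in the main fit. The low gene Trib3 was at -1.16 when 0.1 was added to each TPM value in place of 1. Ppp1r15a was at 1.03 after quantile normalization and at 1.00 with scaling without the most abundant features. The groups did not overlap in 32 of the 34 (94.1%, where 84.4% of all tested features did not). The 34 genes together took a similar part of each library, 0.245% and 0.245% in PBS and 0.244% and 0.243% in CS1, since the rise of Atf4 and Ppp1r15a offset the falls in the sum. Chac1, which encodes an enzyme that degrades glutathione, was not tested, at 0.56 and 0.49 TPM in PBS and 0.80 and 0.42 TPM in CS1.

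**Figure D1:**
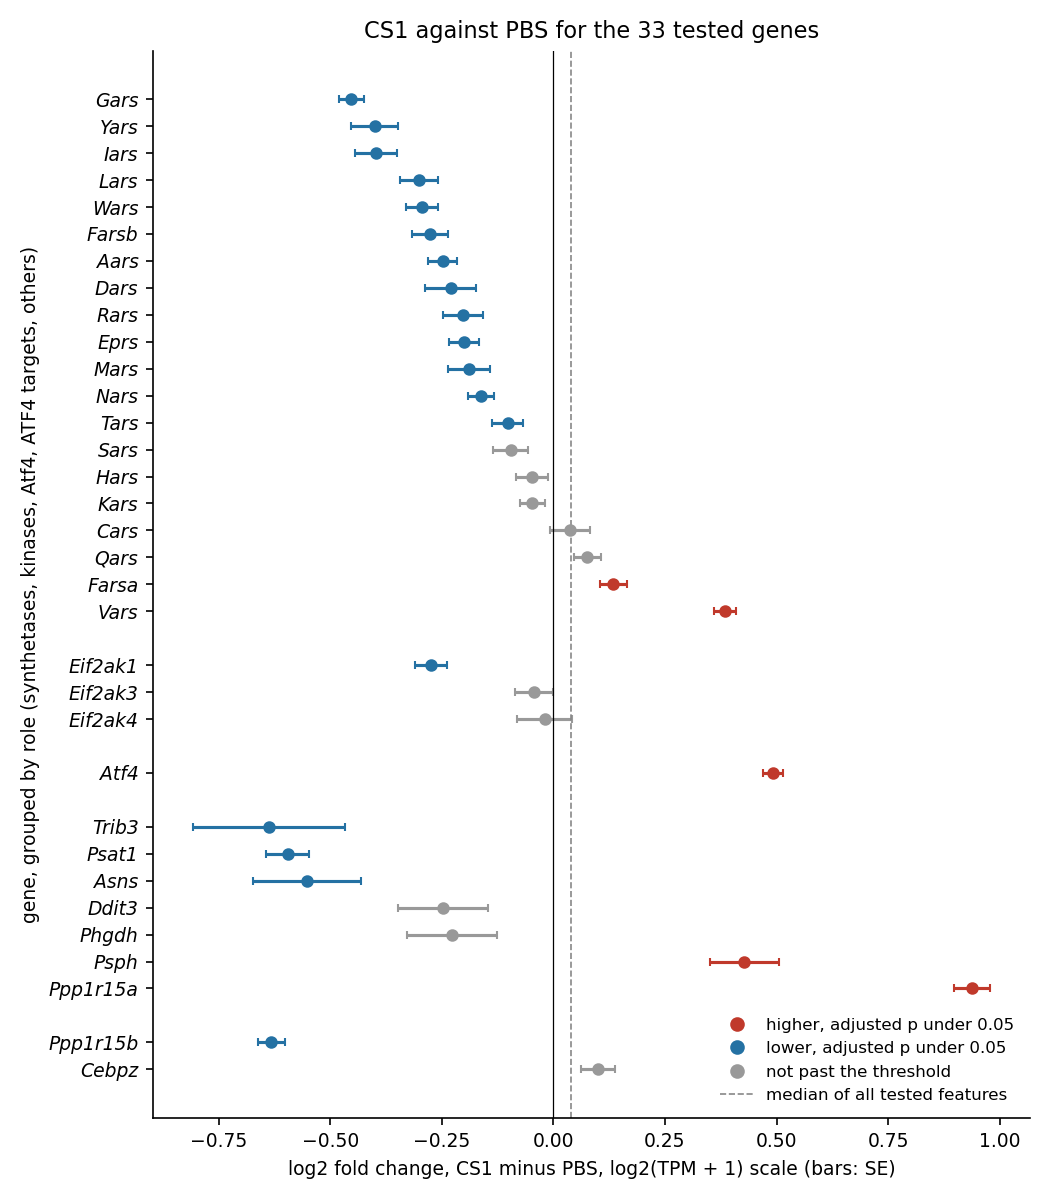
Log2 fold change of CS1 minus PBS on the log2(TPM + 1) scale (x axis) for the 33 tested genes (y axis), grouped by role, with SE bars from the limma fit; red and blue points passed an adjusted p of 0.05 and grey points did not. The dashed line is the median of all tested features, 0.04, and the synthetase points reach from -0.45 for Gars to 0.38 for Vars.

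Of the 20 cytosolic synthetase transcripts 13 fell in CS1 (65.0%, against 31.6% of all features), 2 rose (Vars and Farsa) and 5 did not pass the test. Their median log2 fold change was -0.19. Summed over the 20 genes, the level was 1465 and 1464 TPM in PBS and 1351 and 1341 TPM in CS1, a change of -8.10% in the mean sum. Each of the 20 genes had groups that did not overlap, 16 with CS1 below and 4 with CS1 above (Cars, Farsa, Qars and Vars); a lack of overlap was the usual state, at 84.4% of all tested features.

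**Figure D2:**
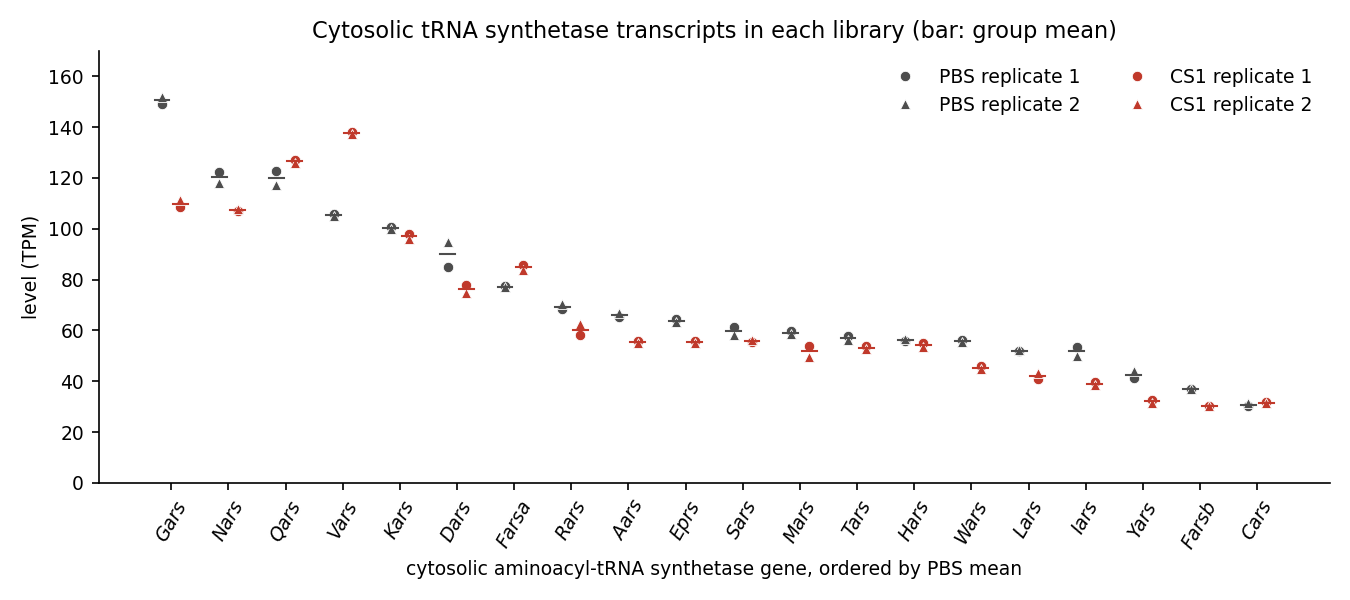
Level in TPM (y axis, from 0) of the 20 cytosolic synthetase genes (x axis, ordered by PBS mean) in each library, with circles for replicate 1, triangles for replicate 2 and short bars for group means. Gars is highest in PBS at 149 and 152 TPM, while Vars is highest in CS1 at 138 and 137 TPM.

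Gars, which encodes the glycyl-tRNA synthetase of both cytosol and mitochondria, had the largest fall among the synthetases (chromosome 6, 55038007 to 55079500, mm10, plus strand). It was at 149 and 152 TPM in PBS and at 108 and 111 TPM in CS1, a log2 fold change of -0.45 ± 0.03 (SE, n = 2 libraries each, limma adjusted p = 5.54e-05). Both CS1 libraries lay below both PBS libraries by far more than the spread within a group. Yars, for tyrosine, was at 41.1 and 44.1 TPM in PBS and at 32.7 and 31.3 TPM in CS1 (-0.40 ± 0.05, limma adjusted p = 0.00101). Iars, for isoleucine, was at 53.5 and 50.1 TPM in PBS and at 39.8 and 38.4 TPM in CS1 (-0.40 ± 0.05, limma adjusted p = 0.000742). Relative to the PBS mean the level changed by -27.1% for Gars, -24.8% for Yars and -24.5% for Iars. Lars (leucine), Wars (tryptophan), Farsb (a subunit of the phenylalanine enzyme), Aars (alanine), Dars (aspartate), Rars (arginine), Eprs (glutamate and proline in 1 polypeptide), Mars (methionine) and Nars (asparagine) fell by 0.16 to 0.30 on the log2 scale. Aars shares 1326 exonic bases with Exosc6 on the same strand, so that reads could be split between them and its value is uncertain to that extent.

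Tars, the threonine enzyme gene, had the smallest fall called (log2 fold change -0.10, limma adjusted p = 0.045). Its call was lost when any 1 of the 4 libraries was left out (adjusted p = 0.0732 to 0.178). Single libraries also decided Mars (adjusted p = 0.0657 without PBS replicate 1 and 0.0511 without CS1 replicate 2), Dars (0.0616 without CS1 replicate 2) and Rars (0.052 without PBS replicate 2). Sars (serine, -0.10), Hars (histidine, -0.05), Kars (lysine, -0.05) and Cars (cysteine, 0.04) did not pass, and neither did Qars (glutamine, 0.08, adjusted p = 0.0737), which passed without PBS replicate 1 (0.0475).

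Vars, which encodes the valine enzyme, went the other way (chromosome 17, 35000987 to 35016322, mm10, plus strand). It was at 106 and 105 TPM in PBS and at 138 and 137 TPM in CS1, a log2 fold change of 0.38 ± 0.03 (SE, n = 2 libraries each, limma adjusted p = 6.97e-05). Gars thus stood above Vars in PBS, with a ratio of 1.41 and 1.45 within the libraries, and below it in CS1, with 0.785 and 0.808; such ratios do not depend on the scaling between libraries.

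Farsa and Farsb encode the α and β subunits of a single enzyme, phenylalanyl-tRNA synthetase, and moved apart. Farsa rose from 77.3 and 77.1 TPM in PBS to 85.9 and 83.8 TPM in CS1 (0.13 ± 0.03, limma adjusted p = 0.00943). Farsb fell from 36.9 TPM in either PBS library to 30.2 and 30.4 TPM in CS1 (-0.28 ± 0.04, limma adjusted p = 0.00171). The ratio of Farsa to Farsb was 2.09 in both PBS libraries and 2.85 and 2.75 in the CS1 libraries.

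The order of levels among the synthetases changed at the top and little at the bottom. In PBS the order was Gars, then Nars and Qars, which did not differ beyond their spread (120 ± 2.95 and 120 ± 3.73 TPM, SD), then Vars (105 ± 0.566), Kars (100.2 ± 0.608) and Dars (89.9 ± 6.84). In CS1 it was Vars (138 ± 0.410), Qars (127 ± 0.849), then Gars (110 ± 1.92) and Nars (107 ± 0.488), Kars (97.8 and 96.1 in its libraries) and Farsa (84.8 ± 1.49). The lowest means were those of Cars and Farsb in both groups, between 30.2 and 36.9 TPM in single libraries, though in CS1 Yars (32.7 and 31.3) did not differ from Cars (31.7 and 31.6) beyond its spread.

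The synthetases belong to structural classes I and II, which differ in the fold of the catalytic domain. Of 9 class I genes (Cars, Iars, Lars, Mars, Qars, Rars, Vars, Wars, Yars) 6 fell and 1 rose, with a median of -0.20. Of 10 class II genes (the others apart from Eprs, which holds both folds) 6 fell and 1 rose, with a median of -0.13. In animals 8 of these synthetases sit in a multisynthetase complex, and 6 of these 8 fell and none rose, while Kars and Qars did not pass; of the 12 outside it 7 fell and 2 rose. Among all tested features 31.6% fell and 35.3% rose. By comparison 66.7% of class I fell and 11.1% rose, and 60% of class II fell and 10% rose. In the complex 75% fell and none rose, while outside it 58.3% fell and 16.7% rose. The differences between these groups were not tested. The complex's non-enzymatic scaffold genes diverged: Aimp1 rose from 74.0 TPM in either PBS library to 93.4 and 94.5 TPM in CS1 (0.34 ± 0.03, limma adjusted p = 0.00018). Eef1e1 went from 30.1 and 25.4 TPM to 19.1 and 21.5 TPM (-0.43 ± 0.10, limma adjusted p = 0.00945), and Aimp2 did not pass (0.12, adjusted p = 0.207) except without PBS replicate 2 (0.0268).

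Mitochondrial synthetases, most of them encoded by separate nuclear genes, charge the transfer RNA of that organelle. Of 17 such genes, all tested, 5 rose (29.4%, below the 35.3% of all features) and 2 fell (11.8%, against 31.6%), and their median log2 fold change was 0.15. In all 41.2% of them were called, against 67.0% of all features. Vars2 rose from 12.3 and 12.1 TPM in PBS to 21.7 and 19.8 TPM in CS1 (0.72 ± 0.07, limma adjusted p = 0.000303). Sars2 rose from 19.0 and 18.5 to 29.3 and 30.6 TPM (0.65 ± 0.05, limma adjusted p = 0.000157), and Aars2 from 12.4 and 12.0 to 21.3 and 19.2 TPM (0.68 ± 0.07, limma adjusted p = 0.000484). For 14 amino acids both a cytosolic and a mitochondrial gene were on these lists. In 3 of the 14, alanine, isoleucine and leucine, the cytosolic gene fell while the mitochondrial gene rose. The leucine gene Lars2, at 587 and 536 TPM in PBS and 666 and 642 TPM in CS1, lay far above all other mitochondrial synthetases. The reason for its high level was not tested. Tryptophan and tyrosine fell in both compartments, and valine rose in both. The difference between compartments was not tested.

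**Figure D3:**
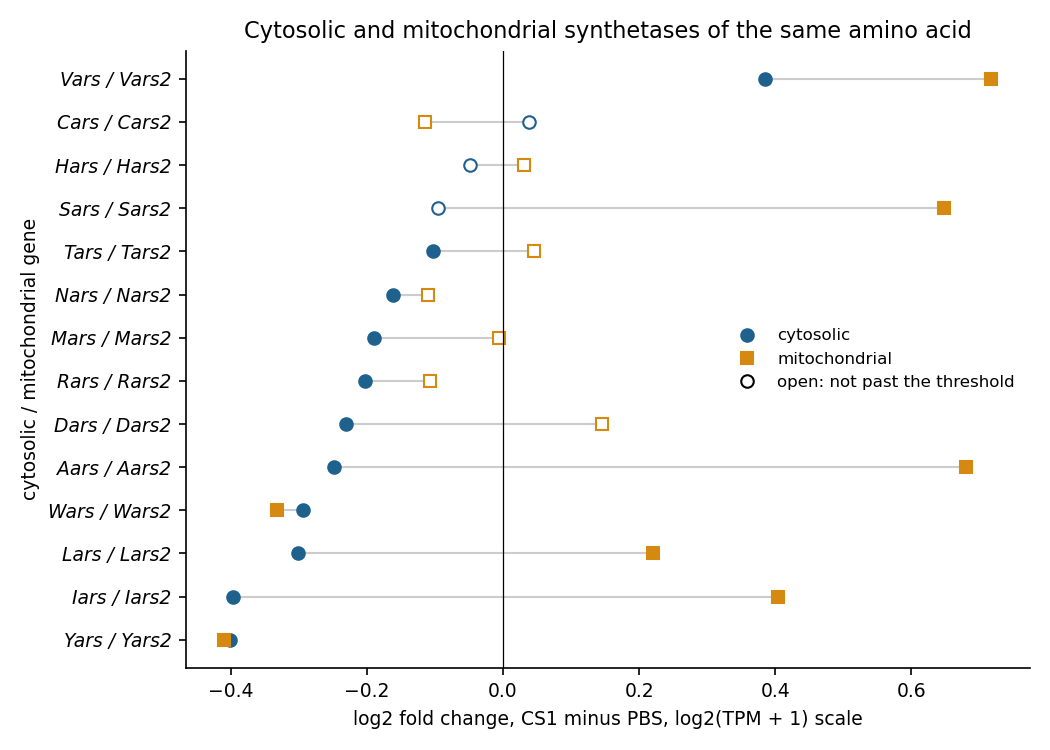
Log2 fold change of CS1 minus PBS on the log2(TPM + 1) scale (x axis) for the cytosolic gene (circles) and the mitochondrial gene (squares) of the same amino acid (y axis, 14 pairs), with filled symbols for an adjusted p under 0.05. The mitochondrial symbol lies to the right of the cytosolic one in 11 of the 14 pairs.

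Of the 3 eIF2 kinase genes in the set only Eif2ak1 was called. It encodes HRI, the kinase that senses haem shortage, and was at 124 and 123 TPM in PBS and at 99.0 and 105 TPM in CS1 (-0.27 ± 0.04, limma adjusted p = 0.00112). Its exons share 487 bases with Aimp2 and 172 with Ankrd61 on the opposite strand, and since it is not given whether counting used strand, its value is uncertain to that extent. For Eif2ak3, which encodes PERK of the endoplasmic reticulum, the PBS libraries gave 36.9 and 37.9 TPM and the CS1 libraries 35.8 and 36.8 TPM. Eif2ak4, for GCN2, which senses uncharged transfer RNA, was at 16.8 and 17.6 TPM in PBS and 16.7 and 17.2 TPM in CS1, with overlapping groups. Neither passed (log2 fold changes -0.04 and -0.02, limma adjusted p = 0.396 and 0.79). The fourth kinase gene, Eif2ak2 for the interferon-induced PKR, was no member of the set and fell from 26.2 and 27.0 TPM to 17.0 and 16.5 TPM (-0.64 ± 0.05, limma adjusted p = 0.00018).

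Atf4 itself rose (chromosome 15, 80255184 to 80257541, mm10, plus strand). It was the most abundant of the 34 transcripts, at 294 and 298 TPM in PBS and 412 and 422 TPM in CS1, a log2 fold change of 0.49 ± 0.02 (SE, n = 2 libraries each, limma adjusted p = 2.23e-05). Both CS1 libraries lay above both PBS libraries, by far more than libraries of a group differed. The log2 fold change of Atf4 was above that of 82.7% of tested features.

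**Figure D4:**
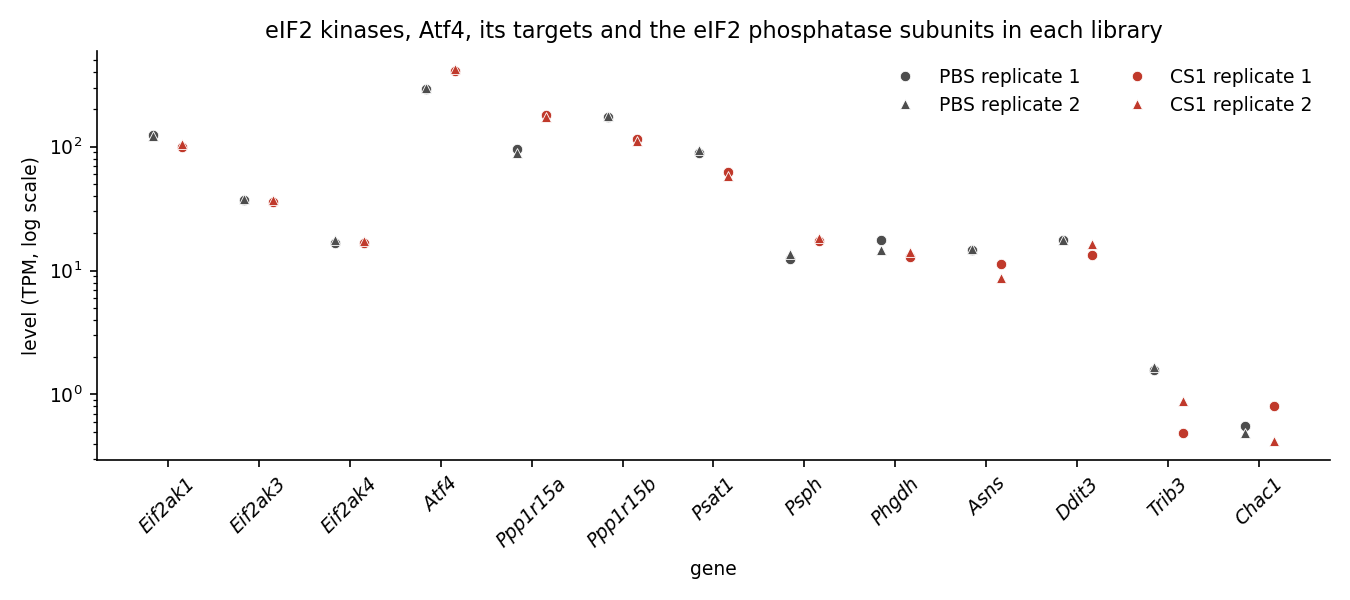
Level in TPM (y axis, log scale) of the eIF2 kinase genes, Atf4, the eIF2 phosphatase subunit genes and the ATF4 targets among the members (x axis) in each library, with circles for replicate 1 and triangles for replicate 2. Atf4 and Ppp1r15a are higher in both CS1 libraries, Psat1 and Ppp1r15b are lower in both, and Chac1 lies below 1 TPM throughout.

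Among the 7 tested ATF4 targets 2 rose (Ppp1r15a and Psph, 28.6%, against 35.3% of all features). Another 3 fell (Psat1, Asns and Trib3, 42.9%, against 31.6%), though Trib3 passed the filter on low values only through its PBS libraries. Ddit3 and Phgdh did not pass, and Chac1 was not tested. The median log2 fold change over all 8 targets was -0.24, and it lay between -0.33 without CS1 replicate 2 and -0.14 without CS1 replicate 1. Psat1, Psph and Phgdh encode the enzymes of serine synthesis from a glycolytic intermediate. Psat1, the aminotransferase of the middle step, fell from 88.3 and 94.5 TPM in PBS to 62.0 and 58.3 TPM in CS1 (-0.60 ± 0.05, limma adjusted p = 0.000162). Psph, the phosphatase of the last step, rose from 12.3 and 13.7 TPM to 17.2 and 18.4 TPM (0.43 ± 0.08, limma adjusted p = 0.00392). Psph shares 452 exonic bases with Cct6a on the opposite strand, a far more abundant gene (means of 125 TPM and 116 TPM), so its value is uncertain to that extent. Phgdh, the dehydrogenase of the first step, was at 17.5 and 14.6 TPM in PBS and 12.9 and 14.1 TPM in CS1 with no overlap, but did not pass (-0.23, limma adjusted p = 0.0926), though it did without PBS replicate 2 (0.0286). Consecutive steps of serine synthesis thus moved in opposite directions at Psat1 and Psph.

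Asns, which encodes asparagine synthetase, fell from 14.8 and 15.0 TPM in PBS to 11.2 and 8.63 TPM in CS1 (-0.55 ± 0.12, limma adjusted p = 0.00854). Per transcript of Atf4 in the same library, Asns was at 0.0503 and 0.0504 in PBS and 0.0272 and 0.0205 in CS1, and Psat1 at 0.30 and 0.317 in PBS and 0.151 and 0.138 in CS1. These ratios also hold the rise of Atf4 itself and were formed only for Asns and Psat1, both of which fell. Ppp1r15a and Psph, which rose, were not set against Atf4 in this way, so the ratios do not describe the targets as a set. Trib3, a pseudokinase gene that feeds back on ATF4, was at 1.56 and 1.66 TPM in PBS and 0.49 and 0.89 TPM in CS1. It passed the filter on low values only through its PBS libraries, and it fell by -0.64 ± 0.17 (limma adjusted p = 0.0184). The call of Trib3 was lost without CS1 replicate 1, where the log2 fold change was -0.47. It was also lost with no filter (limma adjusted p = 0.112). Trib3 was not tested when either PBS library was left out or with a filter at 5 TPM. Ddit3, for CHOP, the transcription factor of prolonged stress, had levels of 17.7 and 17.6 TPM in PBS and 13.3 and 16.3 TPM in CS1. It did not pass (-0.25 ± 0.10, limma adjusted p = 0.072), though it did without CS1 replicate 2 (0.0105) and after quantile normalization (0.0343). Ddit3 and Mars are neighbours on chromosome 10 whose exons share 68 bases on opposite strands.

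On the log2(TPM + 1) scale the eIF2 phosphatase subunits showed the largest rise and nearly the largest fall among the 34 genes. Only Trib3 fell by more on that scale (-0.64). Relative to the PBS mean the level changed by -57.1% for Trib3 and by -35.7% for Ppp1r15b. Ppp1r15a encodes GADD34, the inducible subunit that directs protein phosphatase 1 to eIF2, and Ppp1r15b encodes CReP, its constitutive counterpart. Ppp1r15a (chromosome 7, 45522916 to 45526268, mm10, minus strand) was at 95.2 and 88.8 TPM in PBS and 180 and 174 TPM in CS1, a log2 fold change of 0.94 ± 0.04 (SE, n = 2 libraries each, limma adjusted p = 1.70e-05). Ppp1r15b (chromosome 1, 133131143 to 133139783, mm10, plus strand) was at 175 and 177 TPM in PBS and 116 and 111 TPM in CS1 (-0.63 ± 0.03, limma adjusted p = 2.56e-05). The constitutive subunit was thus the more abundant transcript in PBS and the inducible one in CS1. Their ratio, Ppp1r15a to Ppp1r15b, was 0.544 and 0.501 in PBS and 1.55 and 1.57 in CS1. Cebpz, a nucleolar factor gene whose name resembles an older name of CHOP, was at 51.3 and 53.3 TPM in PBS and 55.2 and 57.0 TPM in CS1, short of the threshold (0.10, limma adjusted p = 0.0642).

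Other genes of the pathway were taken from written lists. Of 33 further ATF4 targets 22 reached the filter. Among these 13 fell (59.1%, against 31.6% of all features) and 5 rose (22.7%, against 35.3%). The median log2 fold change over the 22 was -0.51, beside 0.04 over all tested features. Over all 33 it was -0.07, with the other 11 genes below 1 TPM on average. Nupr1, a stress-induced chromatin protein gene, fell from 186 and 178 TPM in PBS to 60.4 and 56.9 TPM in CS1 (-1.62 ± 0.04, limma adjusted p = 4.08e-06). Slc1a5, a glutamine transporter gene, fell from 137 and 135 to 86.8 and 85.4 TPM (-0.65 ± 0.03, limma adjusted p = 1.59e-05). Ddit4, an inhibitor of mTORC1 signalling, rose from 193 and 194 to 299 and 295 TPM (0.62 ± 0.02, limma adjusted p = 9.06e-06). Named after their values were seen, Mthfd2 of mitochondrial folate metabolism and the amino acid carrier gene Slc7a5 fell by 1.29 and 0.96 on the log2 scale, and Cebpg and Cebpb, whose products can pair with ATF4, by 0.65 and 0.63. Vegfa, an angiogenic factor gene also chosen after its value was seen, had the largest rise of the list (1.55).

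**Figure D5:**
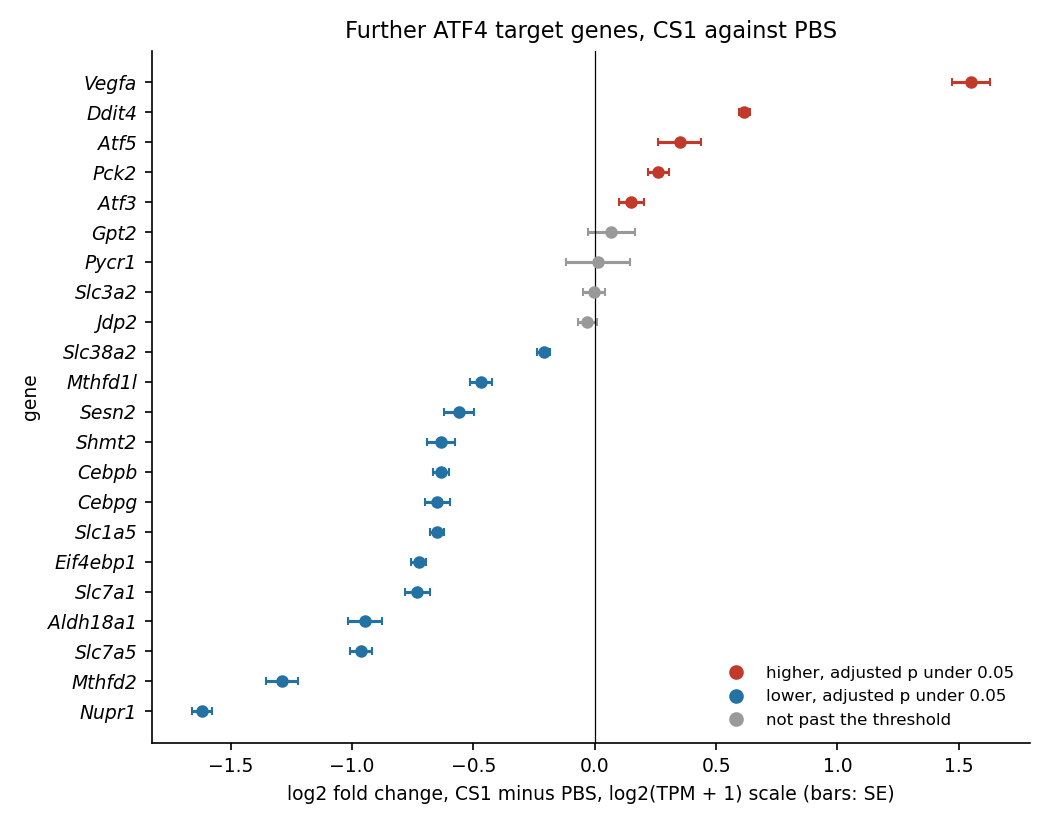
Log2 fold change of CS1 minus PBS on the log2(TPM + 1) scale (x axis, SE bars from the limma fit) for the 22 tested genes of the list of further ATF4 targets (y axis). Blue points, 13 genes from Nupr1 to Slc38a2, fell at an adjusted p under 0.05, red points, 5 genes, rose, and grey points did not pass.

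The machinery on which the kinases act is eIF2 with its exchange factor eIF2B. Among their 8 tested subunit genes 3 were higher (37.5%) and 2 lower (25%), near the 35.3% and 31.6% of all features. Eif2s1, which encodes the α subunit that is phosphorylated, fell from 47.1 and 50.5 TPM to 36.7 and 36.5 TPM (-0.40 ± 0.05, limma adjusted p = 0.000631). The γ subunit gene Eif2s3x fell from 132 and 134 to 99.3 and 95.2 TPM (-0.45 ± 0.03, limma adjusted p = 8.66e-05). Eif2s2, for the β subunit, rose from 91.3 and 93.8 to 108 TPM in either CS1 library (0.23 ± 0.03, limma adjusted p = 0.000947). Among 10 other regulators 2 rose (20%, against 35.3% of all features) and 5 fell (50%, against 31.6%). Denr, a factor of translation reinitiation, rose from 25.2 and 23.9 to 37.5 and 39.7 TPM (0.63 ± 0.05, limma adjusted p = 0.000176), and Dnajc3, an inhibitor of PERK and PKR, fell from 57.0 and 55.9 to 42.1 and 42.9 TPM (-0.40 ± 0.04, limma adjusted p = 0.000229).

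The genes holding the TGATGNAA element are set beside their changes as a description. Of the 8 members with a match 7 fell (Aars, Gars, Iars, Tars, Yars, Asns and Trib3, the last of which passed the filter only through PBS), none rose and Chac1 was not tested, and their median log2 fold change was -0.40. Among the 17 members with a window and no match, 6 fell and 4 rose (Farsa, Atf4, Psph and Ppp1r15a), with a median of -0.10. Over all tested features with a window, 100 of 257 with a match fell (38.9%) and 78 rose (30.4%), while 2787 of 8790 without one fell (31.7%) and 3112 rose (35.4%). The medians of these groups were -0.07 and 0.04.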

How the data were processed

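Poly(A) RNA was measured in 2 PBS and 2 CS1 libraries, grouped by their titles. The authors deposited 1 table of 24497 features whose values were taken as TPM. The unit is not stated and was inferred from column sums of 977973 to 986345, from decimals and from RSEM, which the submitters' processing notes name together with STAR and mm10; their roles and versions are not given in the sources read here. The lowest deposited TPM value is 0.01, where a 0 would be expected. TPM is a share of the total, keeps no read depth, and no counting interval can be given.

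From these values log2(TPM + 1) was computed, and features reaching 1 TPM in 2 or more libraries entered limma 3.58.1 (R 4.3.3, variance trend on), as described with the results. The fit was also run on simulated data with independent values and only a small part of the features changed. In the deposited data most tested features were called, so that run cannot check the p-values given here. Members and lists were chosen with earlier results of these data known, so they are described by counts and medians beside those of all features, with no test of a list. All 34 members are named; of each further list the 3 genes with the smallest p are named, and of each marker list the most abundant. Promoter windows were to be printed for at most 6 ATF4-related members, those with the element first, and those 3 are shown. 1 further marker gene and 1 further promoter match are not reported here. The stretches of the synthetase genes were added after the data were seen. Gene positions and exons are from GENCODE M21 (GRCm38, the assembly of mm10), and promoter sequences from RefSeq (GRCm38.p6), where Mars is listed under another symbol. Exons of 7 members overlap those of another tested feature: Aars (1326 bases with Exosc6, same strand), Hars, Mars, Eif2ak1, Ddit3, Psph and Cebpz. Alternatives were other pseudocounts (0.1 and 0.5), no filter, a filter at 5 TPM, scaling by an unweighted trimmed mean of M values, quantile normalization, the variance trend off, the replicate number as a block and leaving out each library. Scaling to the sum of all but the 100 most abundant features was added after the data were seen.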

Additional observations from a re-analysis of the deposited data

How the results depend on the processing

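Over 13 alternatives no call among the 34 genes changed direction, and 15 of the 23 called genes kept their call in all of them. Calls were lost for Dars, Mars, Nars, Rars, Tars, Trib3, Asns and Psph in at least 1 alternative, Asns and Psph only with no filter, where 24497 features were tested and 16 members called. Quantile normalization gave 7 members higher and 17 lower, and removed the call of Nars (log2 fold change -0.05, limma adjusted p = 0.178). Sars passed after scaling by the trimmed mean of M values (limma adjusted p = 0.042), and Ddit3, Phgdh, Qars and Cebpz after quantile normalization. The median log2 fold change of the 34 genes was -0.22 with the trimmed mean of M values, -0.14 after quantile normalization, -0.13 with scaling without the most abundant features, and -0.18 to -0.15 when 1 library was left out. That of the 20 synthetases was -0.14 after quantile normalization and -0.13 with scaling without the most abundant features. Over all tested features the median moved too, from 0.04 in the main fit to 0.02 with the trimmed mean of M values. It was -0.005 after quantile normalization and 0.10 with scaling without the most abundant features. These shifts thus include a move of all features, and their cause was not tested. The count of called features, 7949, fell to 5555 with no filter and lay between 6679 and 6888 when 1 library was left out. The replicate numbers are shared by both groups, but no label says that they pair the libraries, and the same-numbered deviations correlated at 0.02 with 2 pairs. With the replicate block 7750 features and 22 members were called (5 higher, 17 lower), Tars being the member lost. Depth is unknown, so for low genes such as Trib3 and Chac1 counting error cannot be given.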
